A study of Mus musculus with 4 samples.

Results

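The 40 genes described here encode proteins that make ribosomes in the nucleolus, and they were taken by symbol from a fixed list. All 40 were found among the 23552 genes measured. Each gene had 1 value per library in FPKM, that is fragments scaled to exon length and to sequencing depth. For most genes that length was all annotated exons joined, which can far exceed 1 transcript. For Fbl it was 4209 bases, against 1197 in the longest coding transcript. Ranks of level between genes are therefore ranks by FPKM only. The RNA came from C57BL/6 mice with acute myeloid leukemia (AML) driven by the fusion oncogene MLL-AF9, and leukemic bone marrow cells positive for c-Kit, a stem and progenitor cell receptor, had been enriched from mice that were moribund. Control cells carried control-eGFP overexpression (replicates 3 and 4) and SUV-OE cells carried Suv39h1-eGFP overexpression (replicates 2 and 3), so all 4 libraries shared MLL-AF9 and eGFP and differed by Suv39h1, a histone H3 lysine 9 methyltransferase. The study's methods name an MSCV-IRES-EGFP vector, whose promoter is not specific to a cell type. The study's methods give female mice at 8 weeks of age, and the labels give no age. All 4 libraries were labelled as RNA-seq batch 2. Nothing in the labels says that replicates came from separate mice, so p-values measure only the spread between these libraries.

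Reads recovered from the FPKM steps, summed over genes, were 23358897 and 21025821 in control against 19910753 and 20725632 in SUV-OE. These sums exceeded the depth by which the FPKM had been divided, and the reason was not tested. That depth was 1.945e+07 and 1.687e+07 in control against 1.775e+07 and 1.778e+07 in SUV-OE, and it sets the floor given next. Each of the 40 genes had between 663 and 27049 reads in every library, far above a floor of 3 reads, which would be an FPKM of 0.154 to 0.178 on 1 kb of exon. Such floors cover counting error only. Suv39h1 (ENSMUSG00000039231, chrX:8061171-8074760) had 12.4 and 12.4 FPKM in control against 75.3 and 81.2 in SUV-OE (limma log2 fold change 2.56, SE 0.11, adjusted p 0.00866), as the labels say. With any library left out its log2 fold change was 2.51 to 2.62 and its limma adjusted p 0.0975 to 0.186, and without the filter on low values 0.109. Kit, the gene used for the sort, had 20.4 and 19.2 FPKM in control against 28.6 and 25.4 in SUV-OE (log2 fold change 0.43, SE 0.12, limma adjusted p 0.160). All 10 genes of a c-Kit+ myeloid progenitor list were detected, and their summed FPKM was 976 and 976 in control against 933 and 992 in SUV-OE. The genes of that list went both ways, with 4 log2 fold changes under 0 and 6 above, from -0.81 to 0.58, and 3 without overlap in each direction, where 28.4% of all genes tested had no overlap with SUV-OE lower and 25.4% with SUV-OE higher.

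Ribosomes are built in the nucleolus. RNA polymerase I transcribes the ribosomal RNA precursor there, small nucleolar RNAs (snoRNAs) guide its chemical modification, and assembly factors fold and cut it while ribosomal proteins join. The work splits into a small (40S) branch, which starts in a large particle called the SSU processome, and a large (60S) branch. Many of these genes are well-known targets of the transcription factor MYC, and their output is known to follow growth rate in blood cells and leukemias.

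Expression of these genes was lower in SUV-OE than in control for nearly the whole set, by modest amounts that did not pass the test gene by gene. Of the 40 genes, 39 had a log2 fold change under 0, against 53.0% of the 13736 genes tested. In 33 genes the groups did not overlap, with each SUV-OE library below each control, against 28.4% of all genes tested. The median log2 fold change of log2(FPKM + 1) was -0.33 over the 40 genes and -0.02 over all genes tested, and 22 genes had a mean FPKM at least 20% lower in SUV-OE. None of the 40 was a differentially expressed gene (DEG), which needed a Benjamini-Hochberg adjusted p under 0.05 by limma and a log2 fold change of 1 or more in size, against 1.22% of all genes tested. None had an adjusted p under 0.05 at any fold change, while 14 had an unadjusted p under 0.05 and were lower in SUV-OE, against 10.4% of all genes tested. With limma-voom on recovered reads, 2 had an adjusted p under 0.05 and were lower, against 1.36% of the 14274 genes fitted. The exact two-sided permutation test cannot give a p below 0.333 with 2 against 2 libraries. In bulk RNA, fewer cells of a type and less RNA per cell cannot be told apart.

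Part of this direction was shared by well-expressed genes in general. The 40 genes had mean FPKM values from 8.25 to 395. Among the 6189 tested genes with a mean at or above the lowest of them, 66.7% had a log2 fold change under 0, 38.7% had no overlap with SUV-OE lower, 14.2% had an unadjusted p under 0.05 and were lower, and the median log2 fold change was -0.12. The 40 genes' own shares, 97.5% for the direction and 82.5% for groups without overlap, lay above these.

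**Figure D1:**
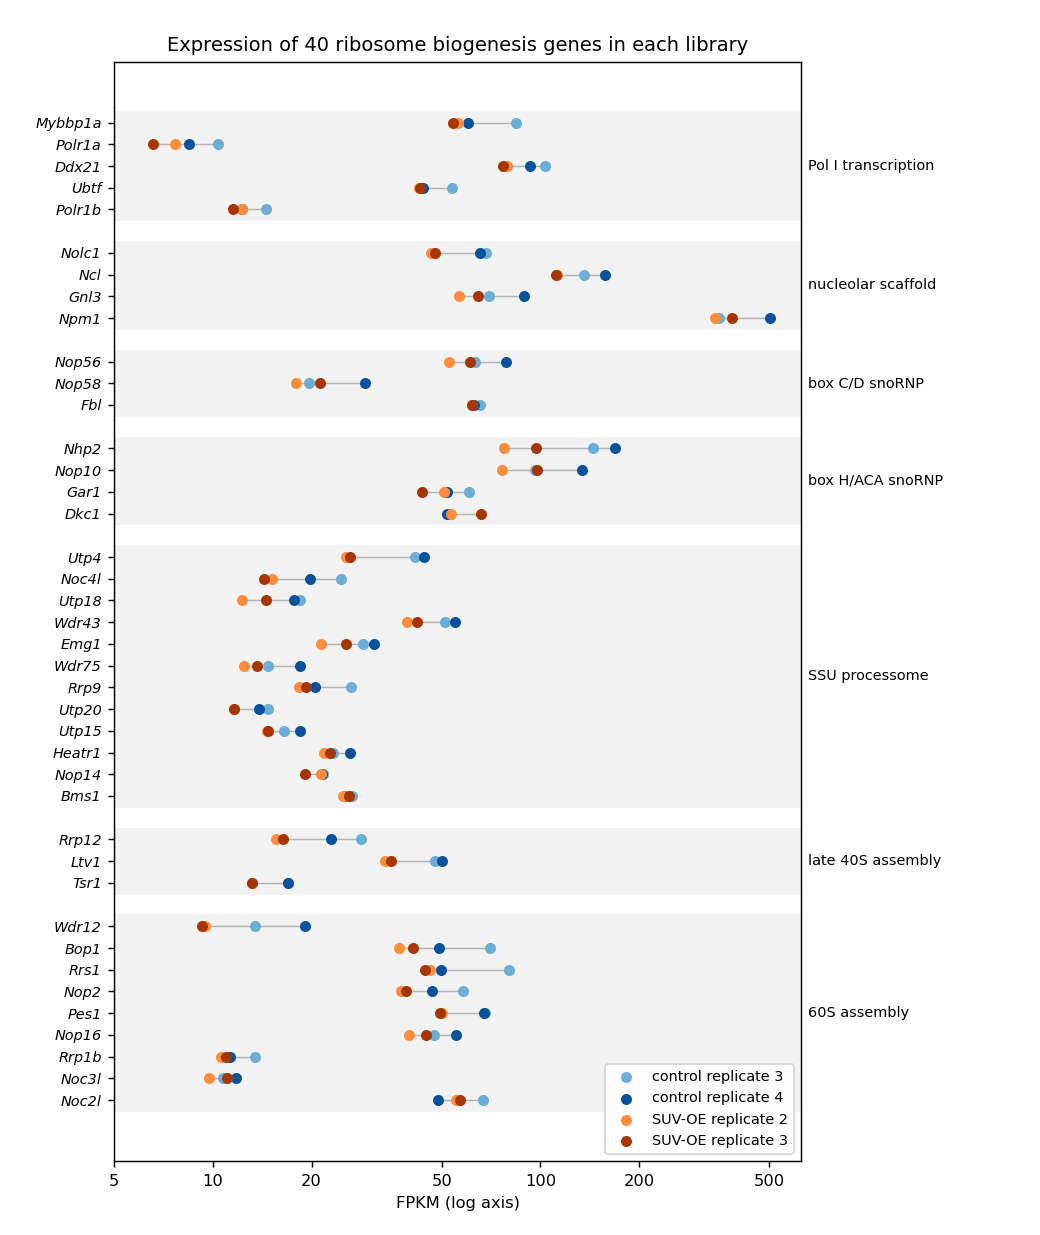
FPKM (log axis) of each of the 40 genes in the 4 libraries, ordered by role, with blue points for control, orange and red points for SUV-OE and a grey line over the range of each gene. In 33 genes both SUV-OE points lie left of both control points, and the levels run from Polr1a to Npm1.

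The genes of RNA polymerase I transcription were all lower, with no overlap between groups in any of the 5 and a median log2 fold change of -0.32, though none had an unadjusted p under 0.05. Polr1a and Polr1b encode the large catalytic subunits of the polymerase, and Ubtf encodes the factor that binds and opens ribosomal DNA. With levels in FPKM here and below, Polr1a had 10.4 and 8.42 in control against 7.63 and 6.57 in SUV-OE (-0.36), and Ubtf had 53.8 and 43.9 in control against 42.7 and 43.0 in SUV-OE (-0.18), values in brackets being log2 fold changes. Polr1b (ENSMUSG00000027395, chr2:129100995-129126594) was nearest to 0, with 14.5 and 12.3 in control against 12.2 and 11.5 in SUV-OE, a log2 fold change of -0.16 (SE 0.13), with an unadjusted p of 0.282 and an adjusted p of 0.539 by limma. Ddx21 (ENSMUSG00000020075, chr10:62580251-62602281), an RNA helicase that acts on polymerase I transcription and on RNA processing, had the highest mean FPKM of the 5. It had FPKM values of 103 and 92.8 in control against 79.3 and 76.9 in SUV-OE, a log2 fold change of -0.32 (SE 0.13), with an unadjusted p of 0.0594 and an adjusted p of 0.260 by limma. Mybbp1a (ENSMUSG00000040463, chr11:72441355-72451768), a nucleolar Myb-binding protein, had 84.3 and 59.96 in control against 56.1 and 54.0 in SUV-OE, a log2 fold change of -0.36 (SE 0.19), with an unadjusted p of 0.122 and an adjusted p of 0.364 by limma. The control libraries of Mybbp1a differed from each other by more than control 4 differed from SUV-OE.

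The 4 genes of nucleolar scaffold and shuttling proteins had a median log2 fold change of -0.38, and 3 of them had no overlap between groups. Nolc1 (ENSMUSG00000015176, chr19:46075863-46085530), a chaperone of snoRNA-protein particles, was lowest and had nearly equal values within groups. Its FPKM was 68.2 and 65.5 in control against 46.4 and 47.8 in SUV-OE, -29.5% in the mean, a log2 fold change of -0.50 (SE 0.11), with an unadjusted p of 0.00830 and an adjusted p of 0.124 by limma. Ncl, or nucleolin, a major nucleolar RNA-binding protein, had 136 and 157 in control against 112 and 112 in SUV-OE (-0.38). Gnl3, or nucleostemin, a GTPase of proliferating and stem cells, had 69.5 and 89.0 in control against 56.5 and 64.6 in SUV-OE (-0.38). Npm1 (ENSMUSG00000057113, chr11:33152287-33163206), the nucleolar chaperone nucleophosmin that is often mutated in human AML, had the highest level of all 40 genes. Its FPKM was 350.4 and 503 in control against 341 and 385 in SUV-OE, so SUV-OE replicate 3 lay above control replicate 3, and limma gave a log2 fold change of -0.21 (SE 0.25), with an unadjusted p of 0.437 and an adjusted p of 0.667. Without control replicate 4 its log2 fold change was 0.05. Npm1 has many processed pseudogene copies in the mouse genome, and how shared reads were counted is not given in the sources used here.

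SnoRNA-protein particles come in 2 kinds, box C/D for methylation of ribosomal RNA and box H/ACA for pseudouridylation. The 3 box C/D genes had a median log2 fold change of -0.28. Nop56 (ENSMUSG00000027405, chr2:130274430-130279313), a scaffold of the box C/D particle, had the highest mean FPKM of the 3. Its FPKM was 63.1 and 78.4 in control against 52.5 and 60.9 in SUV-OE. Limma gave a log2 fold change of -0.31 (SE 0.17), with an unadjusted p of 0.124 and an adjusted p of 0.366. Its SUV-OE replicate 3 lay just below control replicate 3. Nop58, the partner scaffold, had 19.7 and 29.1 in control against 17.9 and 21.3 in SUV-OE (-0.28), and its groups overlapped. Fbl (ENSMUSG00000046865, chr7:28169710-28179269), or fibrillarin, the methyltransferase of the particle, had 65.4 and 62.7 in control against 61.9 and 61.8 in SUV-OE, a log2 fold change of -0.05 (SE 0.12), with an unadjusted p of 0.689 and an adjusted p of 0.838 by limma. The sign for Fbl was turned by quantile normalization, by equal FPKM totals and by the fit on recovered reads.

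The 4 box H/ACA genes held both the lowest and the highest log2 fold change of the set. Nhp2 (ENSMUSG00000001056, chr11:51619735-51623714), a small core protein of the particle that is also part of telomerase, had 145 and 169 in control against 77.3 and 96.7 in SUV-OE. Both SUV-OE libraries lay well below both controls, -44.5% in the mean, and limma gave a log2 fold change of -0.85 (SE 0.18), with an unadjusted p of 0.00578 and an adjusted p of 0.108. Dkc1 (ENSMUSG00000031403, chrX:75095854-75109777), or dyskerin, the pseudouridine synthase that Nhp2 assembles with, was the only gene of the 40 with a log2 fold change above 0. Its FPKM was 52.5 and 52.0 in control against 53.3 and 66.0 in SUV-OE, both SUV-OE libraries above both controls, a log2 fold change of 0.18 (SE 0.15), with an unadjusted p of 0.282 and an adjusted p of 0.539 by limma. Nop10, the smallest core protein, had 96.2 and 134 in control against 76.3 and 97.9 in SUV-OE (-0.39), and its groups overlapped. Gar1 had 60.7 and 51.9 in control against 50.8 and 43.4 in SUV-OE (-0.25). No test of the difference between these genes was run.

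All 12 SSU processome genes had a log2 fold change under 0, with a median of -0.30 and no overlap between groups in 11. The processome forms on the precursor RNA as it is transcribed, and Utp4, Utp15, Wdr43, Wdr75 and Heatr1 belong to its first subcomplex. Utp4 (ENSMUSG00000041438, chr8:106893636-106923088) was lowest of the 12. Its FPKM was 41.5 and 44.3 in control against 25.4 and 26.2 in SUV-OE, and the 2 libraries of each group were close, with a mean change of -39.8%. Limma gave a log2 fold change of -0.71 (SE 0.11), with an unadjusted p of 0.00160 and an adjusted p of 0.0684, the smallest adjusted p of the 40. Wdr43 (ENSMUSG00000041057, chr17:71615895-71659031) had the highest mean FPKM of the 12, with 51.1 and 54.7 in control against 39.2 and 41.9 in SUV-OE. Limma gave Wdr43 a log2 fold change of -0.38 (SE 0.12), with an unadjusted p of 0.0257 and an adjusted p of 0.186. The other members of the subcomplex lay nearer to 0, all without overlap. Wdr75 had 14.7 and 18.4 in control against 12.4 and 13.6 in SUV-OE (-0.32), and Utp15 had 16.5 and 18.4 in control against 14.6 and 14.8 in SUV-OE (-0.23). Heatr1, a long scaffold protein, had 23.2 and 26.2 in control against 21.8 and 22.8 in SUV-OE (-0.14).

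Among the other processome genes, Noc4l, a partner of Nop14, had 24.6 and 19.8 in control against 15.2 and 14.4 in SUV-OE (-0.55). Nop14 itself had 21.6 and 21.5 in control against 21.4 and 19.1 in SUV-OE (-0.09), a difference that turned sign under quantile normalization, equal FPKM totals and the fit on recovered reads. Utp18, of the second subcomplex, had 18.5 and 17.6 in control against 12.3 and 14.5 in SUV-OE (-0.41). Emg1, a methyltransferase of the small-subunit RNA, had 28.6 and 31.0 in control against 21.4 and 25.5 in SUV-OE (-0.34). Rrp9, a protein of the U3 snoRNA particle, had 26.4 and 20.4 in control against 18.4 and 19.2 in SUV-OE (-0.29). Utp20, a very large scaffold protein, had 14.7 and 13.9 in control against 11.6 and 11.6 in SUV-OE (-0.28). Neither overlapped between groups. Bms1 (ENSMUSG00000030138, chr6:118383381-118419474), a GTPase of the particle, was nearest to 0 and its groups overlapped. Its FPKM was 26.7 and 25.1 in control against 24.9 and 26.02 in SUV-OE, and limma gave a log2 fold change of -0.02 (SE 0.11), with an unadjusted p of 0.844 and an adjusted p of 0.924.

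The 3 late 40S assembly genes were lower in SUV-OE in both libraries against both controls, each with an unadjusted p under 0.05, and had the lowest median of the 7 roles, -0.51. Rrp12 (ENSMUSG00000035049, chr19:41862851-41896173), which helps export both subunits from the nucleus, had 28.3 and 23.0 in control against 15.5 and 16.3 in SUV-OE, -37.8% in the mean, a log2 fold change of -0.65 (SE 0.14), with an unadjusted p of 0.00651 and an adjusted p of 0.112 by limma. Ltv1 (ENSMUSG00000019814, chr10:13178140-13193168), a 40S assembly and export factor, had 47.6 and 50.2 in control against 33.5 and 34.9 in SUV-OE, -30.2% in the mean, a log2 fold change of -0.51 (SE 0.11), with an unadjusted p of 0.00708 and an adjusted p of 0.116 by limma. Tsr1 (ENSMUSG00000038335, chr11:74898071-74909342), a GTPase-like factor that blocks early joining of the 40S subunit, had nearly equal replicates. It had 16.9 and 16.9 in control against 13.2 and 13.1 in SUV-OE, a log2 fold change of -0.34 (SE 0.10), with an unadjusted p of 0.0236 and an adjusted p of 0.179 by limma. On the opposite strand, exons of Srr cover 32.3% of the exon bases of Tsr1. The kit does not mark strand, so reads there cannot be told apart, though Srr itself had at most 1.92 FPKM in any library.

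The 9 genes of 60S assembly had a median log2 fold change of -0.43, and 7 had no overlap between groups. Pes1, Bop1 and Wdr12 form the PeBoW complex, which is needed to process the large-subunit RNA, and all 3 were lower in both SUV-OE libraries. Wdr12 (ENSMUSG00000026019, chr1:60069785-60098645) had 13.4 and 19.1 in control against 9.47 and 9.25 in SUV-OE, -42.5% in the mean, a log2 fold change of -0.72 (SE 0.19), with an unadjusted p of 0.0133 and an adjusted p of 0.147 by limma. Bop1 had 70.3 and 49.2 in control against 36.9 and 40.7 in SUV-OE (-0.59). Pes1 (ENSMUSG00000020430, chr11:3963975-3980004) had the highest mean FPKM of the 9. It had 67.6 and 67.1 in control against 50.1 and 49.3 in SUV-OE, with near-equal values within groups. Limma gave Pes1 a log2 fold change of -0.43 (SE 0.11), with an unadjusted p of 0.0137 and an adjusted p of 0.148. The control libraries of Bop1 and Wdr12 were further apart, with control replicate 3 higher for Bop1 and lower for Wdr12.

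Nop2, an RNA methyltransferase and proliferation antigen, had 58.1 and 46.8 in control against 37.5 and 38.8 in SUV-OE (-0.44). Rrs1, which brings the 5S RNA particle to the subunit, had 80.2 and 49.7 in control against 46.1 and 44.6 in SUV-OE (-0.47), and its control libraries were far apart. Nop16 had 47.4 and 55.4 in control against 39.6 and 44.7 in SUV-OE (-0.28) and Rrp1b had 13.4 and 11.2 in control against 10.6 and 10.9 in SUV-OE (-0.17), both without overlap. Noc3l, which escorts 60S precursors, had 10.8 and 11.7 in control against 9.72 and 11.003 in SUV-OE (-0.11), with overlap. Noc2l (ENSMUSG00000095567, chr4:156236010-156247616), its partner and also an inhibitor of histone acetylation, had 66.6 and 48.7 in control against 55.1 and 56.9 in SUV-OE, so both SUV-OE libraries lay between the controls. Limma gave Noc2l a log2 fold change of -0.02 (SE 0.18), with an unadjusted p of 0.898 and an adjusted p of 0.954. Outside Tsr1 and Noc2l, the largest exon overlap of any of the 40 with another gene was 7.21% of exon bases, in Emg1. Samd11 exons on the opposite strand cover 20.9% of the exon bases of Noc2l, and Samd11 had 0.237 and 0.273 FPKM in control against 0.563 and 0.454 in SUV-OE.

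**Figure D2:**
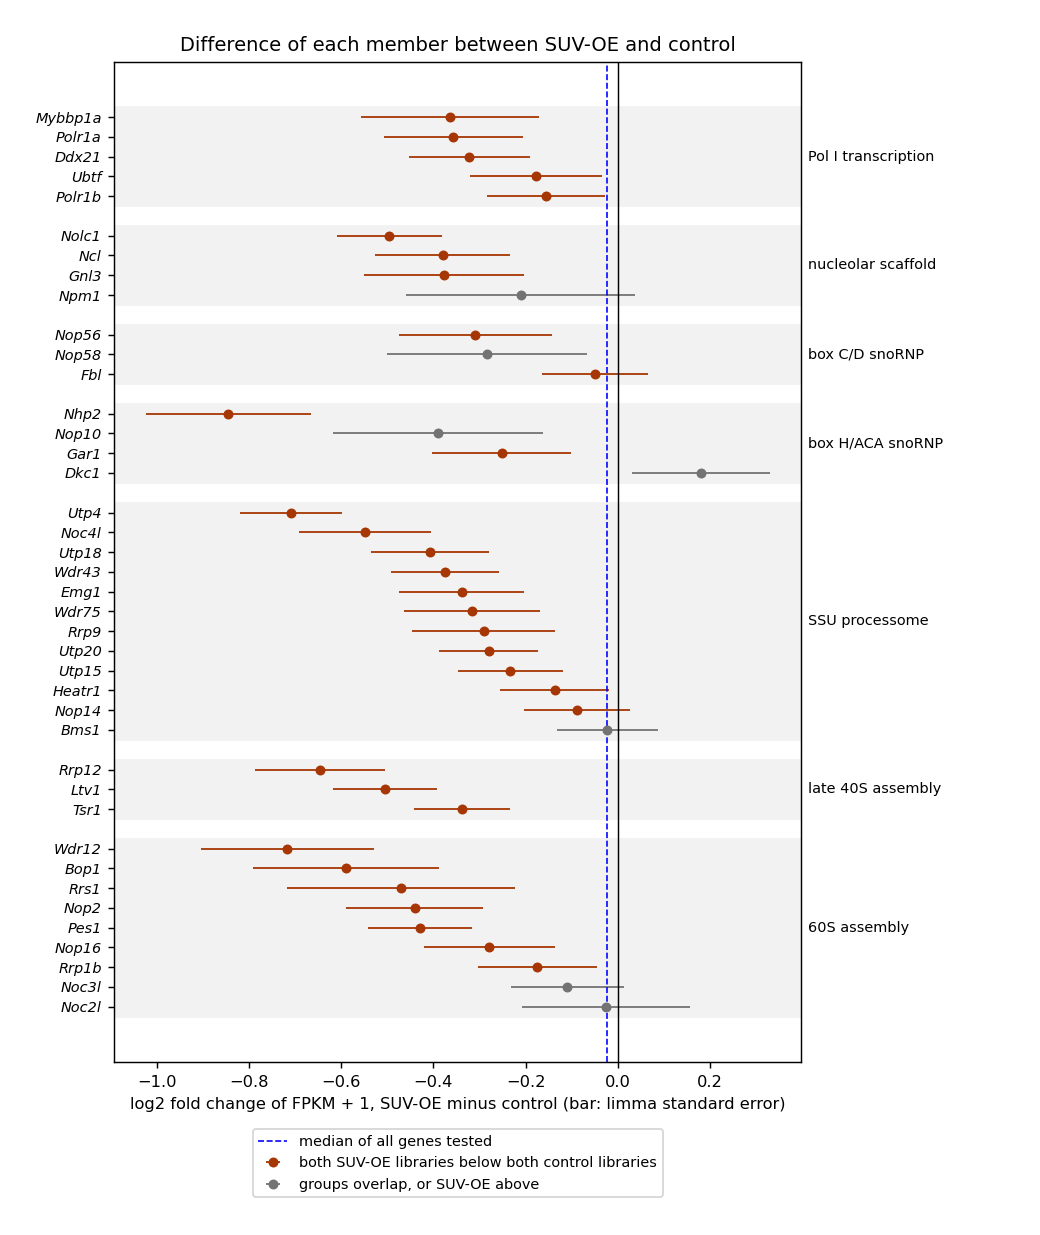
Log2 fold change of FPKM + 1 (SUV-OE minus control) of the 40 genes by role, with bars for the limma standard error, red points where the groups did not overlap with SUV-OE lower and grey points otherwise. The points run from -0.85 for Nhp2 to 0.18 for Dkc1, and the dashed line marks the median of all genes tested, -0.02.

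The wider pathway had the same direction of fold change. A list of 113 other ribosome biogenesis genes, written from general knowledge, held 112 tested genes. Of these, 107 had a log2 fold change under 0, 83 had no overlap with SUV-OE lower, 30 had an unadjusted p under 0.05 and were lower, 1 had an unadjusted p under 0.05 and was higher, and none was a DEG or had an adjusted p under 0.05 by limma or by limma-voom on recovered reads. Over all genes tested these shares were 53.0% under 0, 28.4% without overlap and lower, and 10.4% lower with an unadjusted p under 0.05, and among those at or above the lowest of the 40 they were 66.7%, 38.7% and 14.2%. In the higher direction, 1415 of the 13736 genes tested had an unadjusted p under 0.05 by limma, and 371 of the 6189 at or above the lowest of the 40. The median of the 112 genes was -0.28. By role, the median was -0.14 over 13 other polymerase I genes, -0.20 over 9 snoRNP assembly genes, -0.30 over 40 genes of 40S assembly and -0.28 over 50 genes of 60S assembly. Dcaf13, an SSU processome protein, was lowest, with 51.7 and 63.3 FPKM in control against 33.1 and 38.04 in SUV-OE (log2 fold change -0.67, SE 0.16, limma adjusted p 0.124). Rrp36, also of the 40S branch, had 78.2 and 57.7 in control against 45.4 and 39.7 in SUV-OE (-0.65, SE 0.19, limma adjusted p 0.166). Mdn1, a giant ATPase that strips factors from 60S precursors, was the highest, with 7.26 and 7.41 in control against 9.27 and 9.21 in SUV-OE (0.30, SE 0.11, limma adjusted p 0.223). Ttf1, the polymerase I termination factor, was next, at 0.13 (SE 0.12, limma adjusted p 0.585).

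The proteins of the ribosome itself were set beside its assembly factors. Of 81 cytosolic ribosomal protein genes, 59 had a log2 fold change under 0 and 12 had no overlap with SUV-OE lower, 14.8% of them, with a median of -0.13. Their summed FPKM was 62003 and 99495 in control against 66528 and 80275 in SUV-OE. Both SUV-OE sums thus lay between the controls, and only control replicate 4 was above them. Of 76 mitochondrial ribosomal protein genes, 71 were under 0 and 54 had no overlap with SUV-OE lower, 71.1%, with a median of -0.33. Their sums were 1854 and 2154 in control against 1422 and 1616 in SUV-OE. The share without overlap and lower was 28.4% over all genes tested and 38.7% among those at or above the lowest of the 40. The difference between these groups and the 40 genes was not tested.

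**Figure D3:**
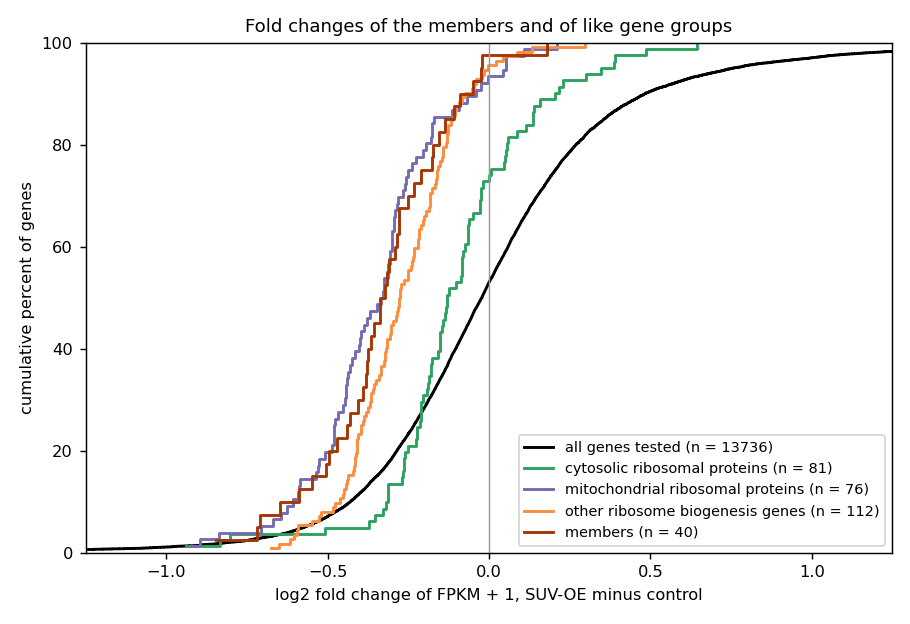
Cumulative percent of genes by log2 fold change of FPKM + 1 (SUV-OE minus control), 1 line for each gene group. The lines of the 40 genes, the 112 other ribosome biogenesis genes and the 76 mitochondrial ribosomal protein genes lie left of the line of all 13736 genes tested over most of the range, and the 81 cytosolic ribosomal protein genes lie between near the median, with medians of -0.33, -0.28, -0.33, -0.02 and -0.13 in that order.

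Other gene lists also had different levels in the groups, and their part in the result was not tested. Of 20 proliferation genes, 18 had a log2 fold change under 0 and 16 had no overlap with SUV-OE lower, against 28.4% of all genes tested in that direction, and their summed FPKM was 1503 and 1330 in control against 1036 and 1124 in SUV-OE. Of 13 neutrophil genes, 11 were above 0 and 10 had no overlap with SUV-OE higher, against 25.4% of all genes tested in that direction, with sums of 5309 and 7586 in control against 9835 and 12012 in SUV-OE. Of 10 tested B cell genes, 9 were above 0 without overlap, to be read beside the same 25.4%, with sums of 21.2 and 29.7 in control against 43.0 and 100.3 in SUV-OE. Of 11 erythroid genes, 10 were above 0 and 5 had no overlap with SUV-OE higher (25.4% of all genes tested), with sums of 39.8 and 168 in control against 151 and 121 in SUV-OE. The monocyte and macrophage list had 8 of 10 above 0, all 8 without overlap (25.4% of all genes tested). Of these, 6 had an unadjusted p under 0.05 by limma, against 1415 of the 13736 genes tested that were higher by this rule. The list had a median log2 fold change of 0.62 over the 10, and its sums were 396 and 677 in control against 402 and 439 in SUV-OE. The megakaryocyte list had 4 of 5 above 0, all 4 without overlap (25.4% of all genes tested), with sums of 11.4 and 17.4 in control against 36.4 and 39.1 in SUV-OE. The list of mast cells, basophils and eosinophils had 5 of 8 above 0 and 4 without overlap with SUV-OE higher (25.4% of all genes tested). Its sums were 124 and 203 in control against 272.5 and 217 in SUV-OE. The list of T and NK cells had 1 of 3 above 0 (75.6 and 115 against 78.6 and 85.6), and that of endothelial and stromal cells 1 of 2 (26.5 and 32.8 against 81.9 and 71.8). No marker measured was at 0 in all 4 libraries. For comparison, the 40 genes summed to 2221 and 2369 FPKM in control against 1740.5 and 1869.5 in SUV-OE.

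Myc encodes the factor that, with its partner MAX, is known to bind the E-box CACGTG and to drive ribosome biogenesis genes. Myc had 59.2 and 45.4 FPKM in control against 58.8 and 53.6 in SUV-OE (log2 fold change 0.11, SE 0.17, limma adjusted p 0.742), so both SUV-OE values lay between the controls, and without control replicate 4 it was -0.08. Of 10 tested genes of the Myc, MAX and MXD family, 4 had a log2 fold change under 0 and 6 above. They ran from -0.21 to 0.63, with a median of 0.05 that pools both directions. Among them 1 had no overlap with SUV-OE lower and 3 with SUV-OE higher, against 28.4% and 25.4% of all genes tested. By limma 1 had an unadjusted p under 0.05 and was higher, against 1415 of the 13736 genes tested. CACGTG, which reads the same on both strands, was searched in RefSeq promoters of build GRCm38.p6, from 250 bases before to 50 bases after each start. Promoters were found for 35 of the 40 genes and named only for the rest, Fbl, Rrp12, Bop1, Rrs1 and Npm1. The motif was in 9 of the 35, or 25.7%, against 12.1% of 9191 tested genes with a promoter, 12.95% of 4763 with a mean FPKM at or above the lowest of the 40, 8.09% of all 27025 genes with a promoter and 17.4% of 92 other ribosome biogenesis genes. These shares are a description, and a match is not a bound site.

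The motif is shown in capitals, with up to 12 bases on each side and 5′ to 3′ along the gene, for the 3 matched genes with the lowest log2 fold changes and for Utp18, chosen after its values were seen because its motif lies before the start. It spans bases 16 to 21 after the start in Utp4, 29 to 34 after it in Ltv1, -60 to -55 in Nop2 and -20 to -15 in Utp18.
Utp4 (chr8:106893643-106893672, plus strand): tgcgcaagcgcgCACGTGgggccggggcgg
Ltv1 (chr10:13193092-13193121, minus strand): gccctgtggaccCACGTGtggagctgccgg
Nop2 (chr6:125131811-125131840, plus strand): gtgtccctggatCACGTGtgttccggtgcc
Utp18 (chr11:93885769-93885798, minus strand): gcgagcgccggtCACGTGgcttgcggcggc

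For context, the 250 bases before the start of Nop2 are shown with the motif in capitals.
Nop2 upstream (chr6:125131633-125131882, plus strand): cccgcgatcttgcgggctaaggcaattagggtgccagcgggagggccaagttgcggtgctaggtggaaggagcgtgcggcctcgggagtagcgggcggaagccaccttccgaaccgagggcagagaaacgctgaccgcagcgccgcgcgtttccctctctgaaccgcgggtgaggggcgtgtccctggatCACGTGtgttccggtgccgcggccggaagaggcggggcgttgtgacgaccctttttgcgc

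The other 5 genes with the motif were Pes1, Wdr43, Mybbp1a, Tsr1 and Utp20. The 9 genes with it had log2 fold changes from -0.71 to -0.28, with a median of -0.41, and all 9 had no overlap with SUV-OE lower. The 26 genes without it ran from -0.85 to 0.18, with a median of -0.29, and 20 had no overlap with SUV-OE lower. For such a lack of overlap the share was 82.5% over the 40 genes and 28.4% over all genes tested. The difference between genes with and without the motif was not tested. Nhp2, the lowest gene of the set, and Dkc1, the highest, were both among those without the motif.

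Several of these genes also carry snoRNA genes inside their own introns or exons, so that the host encodes a protein of the pathway and a guide RNA at once. GENCODE M21, which uses the mm10 build, places 21 snoRNA and scaRNA genes inside 7 of the 40, namely Dkc1, Gnl3, Ncl, Nop56, Nop58, Tsr1 and Wdr43. That is 17.5% of the 40, against 1.75% of all genes tested and 2.88% of those with a mean FPKM at or above the lowest of the 40. Of the 21, 11 lay in introns clear of exons. The snoRNA levels were not analysed here. A box C/D guide from an intron of each particle scaffold is shown 5′ to 3′ in DNA letters, since Nop56 and Nop58 bind RNAs of this kind, with the letters TGATGA of the C box and CTGA of the D box in capitals.
Snord110 (chr2:130275506-130275573, plus strand): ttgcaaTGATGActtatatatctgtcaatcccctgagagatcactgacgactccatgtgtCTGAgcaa
Snord11 (chr1:59704790-59704873, plus strand): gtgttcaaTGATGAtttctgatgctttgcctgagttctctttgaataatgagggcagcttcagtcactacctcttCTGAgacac

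The host genes were not alike in their levels. Wdr43, Ncl, Gnl3 and Tsr1 had log2 fold changes from -0.38 to -0.34 without overlap, Nop56 and Nop58 had -0.31 and -0.28, and Dkc1 had 0.18.

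The size of the difference, and how many genes had no overlap, moved with the scaling of the libraries. The deposited FPKM summed to 356552 and 414940 in control against 340958 and 373067 in SUV-OE. Under quantile normalization the median of the 40 genes was -0.19, 21 had no overlap with SUV-OE lower (27.3% of all genes tested) and 9 had an unadjusted p under 0.05 and were lower (9.39%). With FPKM totals made equal, a setting added after the data were seen, the median was -0.22, 21 had no overlap (16.9%) and 5 had an unadjusted p under 0.05 and were lower (4.42%). In a limma-voom fit on recovered reads the median was -0.25, 22 had no overlap in reads per library total (19.7% of the genes fitted) and 9 had an unadjusted p under 0.05 and were lower (6.45%). In that fit the 2 genes with an adjusted p under 0.05 were Nhp2 (log2 fold change -0.76, adjusted p 0.0354) and Utp4 (-0.63, adjusted p 0.0372). With median-of-ratios scaling 29 had no overlap (26.4%). Relative to the median of all genes in the same fit, the 40 genes stood at -0.31 as reported, -0.16 under quantile normalization, -0.30 with median-of-ratios scaling, -0.29 with equal totals and -0.33 with recovered reads. In these 5 fits 35 genes kept a log2 fold change under 0, Dkc1 was above 0 in each, and Fbl, Nop14, Bms1 and Noc2l took both signs.

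The number of genes with an unadjusted p under 0.05 and lower values also depended on single libraries. That count was 14 with all libraries, 17 without control replicate 3 (12.8% of all genes tested), 20 without control replicate 4 (14.9%), 1 without SUV-OE replicate 2 (2.89%) and 3 without SUV-OE replicate 3 (3.59%). The median of the 40 genes ran from -0.37 to -0.28 over these 4 fits, and 36 genes were under 0 in all of them.

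**Figure D4:**
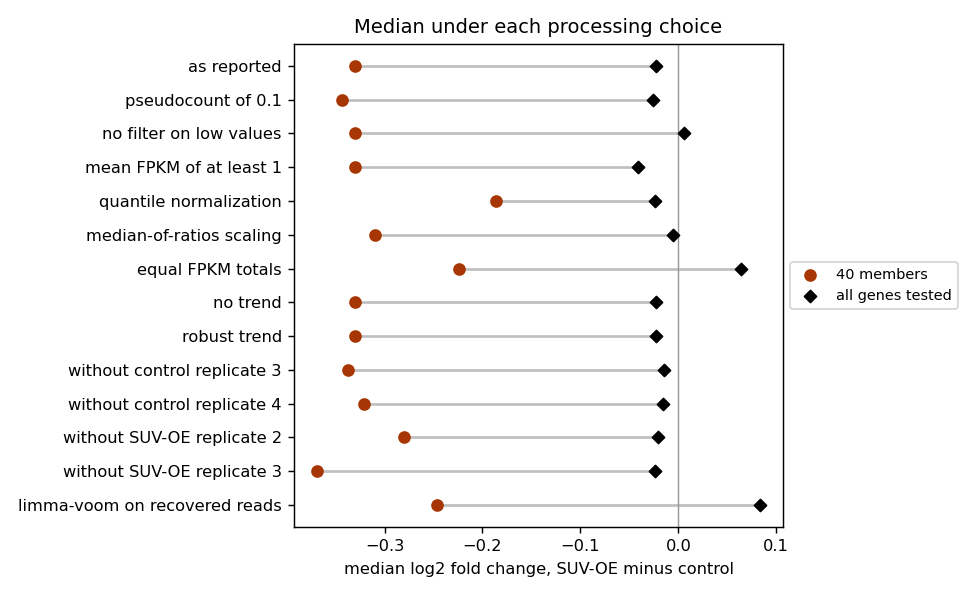
Median log2 fold change (SUV-OE minus control) of the 40 genes (red circles) and of all genes tested (black diamonds) under each processing choice, joined by a grey line. The 40 genes lie left of all genes under every choice shown, from -0.37 without SUV-OE replicate 3 to -0.19 under quantile normalization.

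The control libraries differed from each other in a way that followed base composition. Control replicate 4 was above control replicate 3 in 18 of the 40 genes and below it in 22. Across the 40 genes, the log2 ratio of control 4 to control 3 correlated with the GC content of the transcript (Pearson r -0.74, Spearman rho -0.72), a description across genes of the same libraries, which are not independent replicates. The log2 fold change between SUV-OE and control had an r of -0.09 and a rho of -0.06 with GC. In the 20 genes with lower GC (40.4% to 49.3%) control 4 was above control 3 in 14, and in the 20 with higher GC (50.3% to 59.8%) in 4. The median log2 fold change between SUV-OE and control was -0.32 in the former and -0.35 in the latter, with 14 and 19 genes without overlap and with SUV-OE lower. The 3 genes with the lowest GC, Wdr12, Nop58 and Npm1, were higher in control 4, and the 3 with the highest, Rrp9, Bop1 and Gar1, were higher in control 3. Transcript length had an r of 0.004 and a rho of 0.14 with the log2 fold change over the 40 genes.

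**Figure D5:**
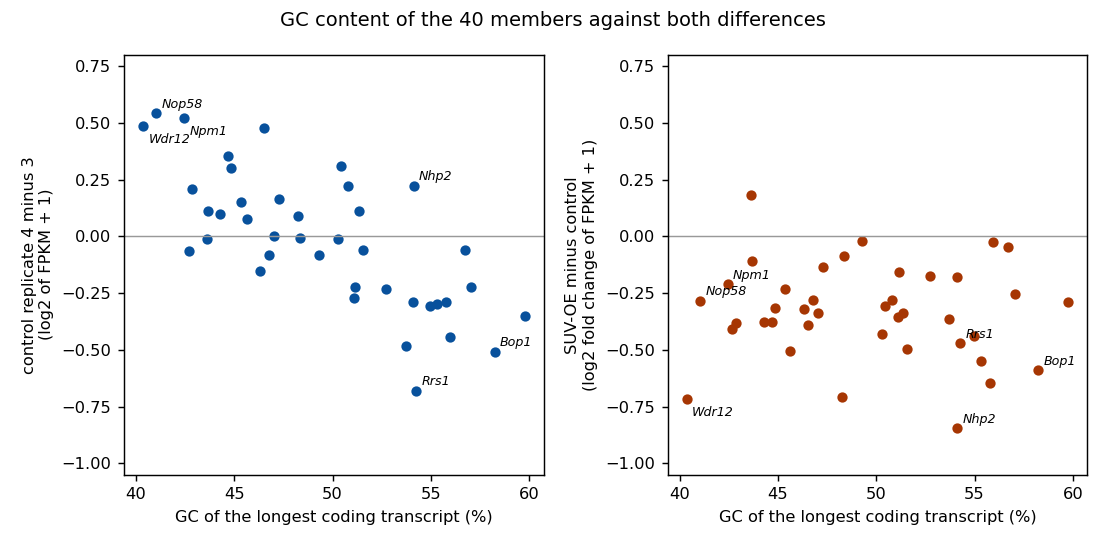
GC content of the longest coding transcript (percent) of the 40 genes against the log2 difference between the 2 control libraries (left) and the log2 fold change between SUV-OE and control (right), 1 point per gene. The left panel slopes down, with r -0.74, and the right panel has no clear slope, with r -0.09.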

How the data were processed

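RNA-seq of 4 libraries was compared, 2 of control and 2 of SUV-OE c-Kit+ leukemic cells. Per the labels and the study's methods, the authors prepared TruSeq RNA v2 libraries, which do not mark strand, sequenced them as paired ends, used CASAVA 1.8 and aligned with TopHat2 to mm10. The authors deposited FPKM per gene for 23552 genes, which the study's methods attribute to Cufflinks. The annotation release and aligner version are not given in the sources used here. The study's DEGs came from a count test, which cannot be run on the deposited FPKM as they stand. Limma on FPKM was the main test here, and limma-voom on recovered reads was an alternative.

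The 40 genes, their roles and the other gene lists were chosen with earlier results of these data known. FPKM was compared with limma 3.58.1 in R 4.3.3 on log2(FPKM + 1), with an intensity trend and the group as the only term, for 13736 genes (mean FPKM of 0.5 or more). Fold changes on this scale understate changes of low genes. Adjusted p-values were by Benjamini-Hochberg over all genes tested, and DEGs also had a log2 fold change of 1 or more in size at an adjusted p under 0.05. Groups without overlap are counts with no test.

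Full statistics are given, in each role, for the gene with the highest mean FPKM and those with the lowest and highest log2 fold change. Of genes outside the 40, the rule took Suv39h1, Kit, Myc and the 2 lowest and 2 highest other pathway genes. Promoter sequences were shown by rule for the 3 matched genes with the lowest log2 fold change, and snoRNA sequences were chosen after the values were seen.

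At exon lengths from GENCODE M21, 78.5% of genes had values equal to whole reads in each library (tolerance 0.01), and another 4930 genes did so at another length. These recovered reads were used in limma-voom for 14274 genes that had 10 or more reads on average. The same steps gave the depth by which the FPKM had been divided. Alternatives were quantile normalization, scaling by median of ratios, limma-voom, a pseudocount of 0.1, a minimum mean FPKM of 1 or none, no trend or a robust trend, an adjusted p under 0.1, no fold threshold, and the removal of each library. Equal FPKM totals, and the background of genes at or above the lowest of the 40, were added after the data were seen. Scripts were tested on simulated data. GENCODE M21 gave positions, exon overlaps, transcripts and snoRNAs, and RefSeq (GRCm38.p6) gave promoters. Protein sequences were not used here.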

Additional observations from a re-analysis of the deposited data

How the results depend on the processing

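No paired analysis was possible because control and SUV-OE have only the number 3 in common. Leaving out a library leaves an arm with 1 sample, whose spread is assumed to be that of the other group. None of the 40 genes was a DEG by limma under any alternative, including an adjusted p under 0.1 and no fold change threshold. With all libraries 14 had an unadjusted p under 0.05 and were lower, and limma-voom gave 2 an adjusted p under 0.05. Quantile normalization gave 9 genes with an unadjusted p under 0.05 and lower, 21 without overlap, and medians of -0.19 over the 40 genes and -0.18 over the other ribosome biogenesis genes. Equal FPKM totals gave 5, 21, -0.22 and -0.17. Limma-voom on recovered reads gave 9, 22, -0.25 and -0.19. Leaving out each library gave 1 to 20 genes with an unadjusted p under 0.05 and lower, and medians from -0.37 to -0.28 and from -0.29 to -0.25. The sign turned for Bms1 at 0.089 (quantile normalization), 0.082 (equal totals) and 0.074 (recovered reads), with a range of -0.064 to 0.019 when a library was left out, and for Fbl at 0.13, 0.058 and 0.048 under the same 3 scalings. It turned for Noc2l at 0.13, 0.082 and 0.073 under these scalings. When a library was left out, Noc2l ranged from -0.25 to 0.20, Myc from -0.076 to 0.30 and Npm1 from -0.47 to 0.049. The cause was not tested. Suv39h1 kept its direction, with an adjusted p by limma of 0.109 without the filter and 0.097 to 0.186 when a library was left out. Each of the 40 genes had at least 663 reads in every library.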

Other observations

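The relation between GC content and the difference between the control libraries was also present outside the 40 genes. Across 112 other ribosome biogenesis genes, GC content had a Pearson r of -0.64 and a Spearman rho of -0.63 with the log2 ratio of control replicate 4 to control replicate 3, and an r of 0.06 and a rho of 0.09 with the log2 fold change between SUV-OE and control. Across 10972 tested genes with a coding transcript the values were -0.31 and -0.40 for the control ratio and -0.03 and -0.04 for the log2 fold change. Transcript length had an r of 0.30 and a rho of 0.23 with that log2 fold change across the 112 genes, 0.12 and 0.24 across the 10972 genes, and 0.14 and 0.30 across the 5878 of these with a mean FPKM at or above the lowest of the 40. These are descriptions across genes of the same 4 libraries.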
